A study of Mus musculus with 10 samples.

Results

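The genes described here are the CDK inhibitors and the Rb family, 10 genes taken by their symbols: Cdkn1a (p21), Cdkn1b (p27), Cdkn1c (p57), Cdkn2a (p16INK4a and p19ARF), Cdkn2b (p15), Cdkn2c (p18), Cdkn2d (p19INK4d), Rb1, Rbl1 (p107) and Rbl2 (p130). All 10 had at least 1 probe set with a single gene symbol, 17 probe sets in all, out of 18193 genes on the array. Where a gene had several, the probe set with the highest average signal stands for it and the others are given beside it. Genes whose signal exceeded 4.43, the median of all values in the table on the log2 scale, on at least 5 of 10 arrays were tested, 11472 in all, and 9 of the 10 were among them. Cdkn1c exceeded it on 3 arrays and was not tested.

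The RNA came from lymph-node lymphoma cells of Emu-myc mice that lack Suv39h1, a histone H3K9 methyltransferase. In these mice the Emu enhancer drives Myc in the B lineage. All cells, treated or not, carried a retroviral Bcl2, were selected with puromycin and were cultured on irradiated NIH 3T3 fibroblasts as a feeder layer. In the ADR group, cells of 5 lymphomas were exposed to 0.05 µg/ml Adriamycin (doxorubicin, a topoisomerase II poison that breaks DNA) for 5 days, and the untreated group held cells of the same 5 lymphomas. They are numbered lymphoma_1032, lymphoma_4936, lymphoma_5783, lymphoma_7890 and lymphoma_9250, with 1 array per lymphoma and condition; the labels state no age for the mice. Every group shared the missing Suv39h1 and the added Bcl2, so that lymphomas with Suv39h1 or without Bcl2 did not enter the comparison.

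The inhibitors fall into the CIP/KIP family (p21, p27, p57), which binds cyclin E and A complexes of CDK2 and assists the assembly of cyclin D complexes, and the INK4 family (p16, p15, p18, p19INK4d), which binds CDK4 and CDK6. Active CDKs phosphorylate the pocket proteins pRb, p107 and p130 and release the E2F factors that these repress. Cells that arrest or become senescent hold the pocket proteins in the form that binds E2F, and p130 and p107 then join the MuvB proteins in the DREAM repressor. In Emu-myc lymphomas the p19ARF, Mdm2 and p53 branch, which leads to p21, is a known barrier to Myc-driven growth.

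Promoters of 8 of the 10 genes were in the RefSeq table of build GRCm38.p6, as 11 windows that reach from 250 bases before to 50 bases after a transcript start. The 4 windows shown belong to Cdkn1a, whose inducer p53 is activated by DNA damage, to Rbl1, which is itself an E2F target, and to the 2 starts of Cdkn2a, which make different proteins from 1 locus. Capitals mark matches on either strand to the 20-base consensus of the p53 response element, with at most 1 mismatch and intact cores, or to the E2F words TTTCCCGC, TTTCGCGC, TTTGCCGC and TTTGGCGC. The downstream start of Cdkn1a, at chr17:29093519-29093818 on the plus strand, held neither motif and is not shown. The upstream start of Cdkn1a, at chr17:29090729-29091028 on the plus strand, held a p53 element that begins 51 bases before the start.
Cdkn1a: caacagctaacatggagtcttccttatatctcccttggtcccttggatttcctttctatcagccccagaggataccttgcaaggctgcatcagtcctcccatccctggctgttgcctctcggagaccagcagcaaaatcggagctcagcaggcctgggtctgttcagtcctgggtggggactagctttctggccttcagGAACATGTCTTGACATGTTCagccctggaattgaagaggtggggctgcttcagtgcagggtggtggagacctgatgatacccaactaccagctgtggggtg
Rbl1, at chr2:157204485-157204784 on the minus strand, held an E2F word that begins 18 bases before the start.
Rbl1: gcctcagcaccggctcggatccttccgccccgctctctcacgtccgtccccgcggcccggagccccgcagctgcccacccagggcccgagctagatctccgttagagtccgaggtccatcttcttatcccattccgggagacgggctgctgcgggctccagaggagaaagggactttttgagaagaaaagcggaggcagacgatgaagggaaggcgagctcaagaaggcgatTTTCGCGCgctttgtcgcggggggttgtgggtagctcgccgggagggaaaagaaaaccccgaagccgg
The upstream start of Cdkn2a, whose first exon is that of p19ARF, lies at chr4:89294570-89294869 on the minus strand and held an E2F word that begins 99 bases before the start.
Cdkn2a p19ARF: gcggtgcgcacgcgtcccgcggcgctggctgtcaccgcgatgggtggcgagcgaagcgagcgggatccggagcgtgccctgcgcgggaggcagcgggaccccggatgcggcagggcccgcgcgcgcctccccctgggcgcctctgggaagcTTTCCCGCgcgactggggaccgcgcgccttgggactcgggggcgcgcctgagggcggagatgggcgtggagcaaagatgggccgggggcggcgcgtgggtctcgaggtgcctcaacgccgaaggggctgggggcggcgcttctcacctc
The downstream start, whose first exon is that of p16INK4a, lies at chr4:89282143-89282442 on the minus strand and held neither motif.
Cdkn2a p16INK4a: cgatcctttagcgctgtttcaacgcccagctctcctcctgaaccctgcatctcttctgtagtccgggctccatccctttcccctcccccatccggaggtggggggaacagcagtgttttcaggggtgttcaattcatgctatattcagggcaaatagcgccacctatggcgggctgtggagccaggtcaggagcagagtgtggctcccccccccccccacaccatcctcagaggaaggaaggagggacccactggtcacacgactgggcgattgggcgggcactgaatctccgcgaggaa

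An E2F word was present in 2.26% of 32851 promoter windows of the same length and in 2 of the 11 member windows. The p53 element was present in 0.0548% of all windows, 18 in number, and in 1 member window. These matches describe the letters of the windows and were not measured as binding.

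Markers of the B lineage and of other cell types had different levels in the 5 lymphomas. The mean of the 11 tested B-lineage markers lay between 7.28 and 9.62 on ADR arrays and between 7.48 and 9.20 on untreated arrays, in both groups lowest in lymphoma_1032. Its change was -0.21 in lymphoma_1032, -0.48 in lymphoma_4936, 0.43 in lymphoma_5783, 0.54 in lymphoma_7890 and 0.55 in lymphoma_9250. Of all 13, tested or not, 13 were higher in lymphoma_9250 and 11 were lower in lymphoma_4936. In lymphoma_5783 Igll1 had a signal of 10.23 with ADR and 6.30 untreated. Ms4a1, which encodes CD20, had a signal of 4.79 with ADR and of 5.09 untreated in lymphoma_1032, against 8.59 to 11.15 with ADR and 7.87 to 10.98 untreated in the other lymphomas. Cd79a was also lowest in lymphoma_1032, at 7.98 with ADR and 8.80 untreated. Rag1 had 2.17 with ADR and 1.34 untreated there, both below the table median. Its signals elsewhere were 5.45 to 6.83 with ADR and 3.38 to 7.66 untreated. Cd79b, at 9.93 with ADR and 10.07 untreated, and Pax5, at 4.23 and 4.89, were lowest there too, by smaller margins. Some markers of the list did not set that lymphoma apart. Blnk was 11.11 with ADR and 10.99 untreated there, and Cd72 was 9.20 and 9.24, both within the range of the other lymphomas. The 11 tested macrophage markers of 16 were all higher on average with ADR, with list means of 6.66 to 10.95 on ADR arrays and of 6.40 to 10.33 on untreated arrays. Of all 16, whether tested or not, 12 were higher and 4 lower. The mean changes of the 11 tested were 1.06 in lymphoma_1032, 0.32 in lymphoma_4936, 1.23 in lymphoma_5783, 0.26 in lymphoma_7890 and -0.27 in lymphoma_9250. Of 10 tested fibroblast markers 8 were higher on average, with changes of 0.54 in both lymphoma_5783 and lymphoma_1032 and between -0.20 and 0.16 elsewhere. Of 10 neutrophil markers, 5 with ADR and 4 untreated exceeded the table median in lymphoma_1032, and 3 or 4 did on each array of the other lymphomas. In lymphoma_1032 S100a8 had a signal of 11.43 with ADR and 9.08 untreated and Lcn2 of 13.58 with ADR and 12.76 untreated, whereas S100a9, Mpo, Camp and Ngp were below the table median on all 10 arrays. Of 9 T-cell markers, 5 or 6 exceeded it on each ADR array and 5 to 7 on each untreated array. Cd3g and Cd8b1, of the T-cell receptor complex and the CD8 coreceptor, were below it on all 10 arrays, and Cd3e lay between 4.88 and 5.42 with ADR and between 5.08 and 5.54 untreated. Other genes of that list were higher, such as Cd5, at 10.71 with ADR and 11.26 untreated in lymphoma_1032, and Cd2, at 8.74 with ADR and 8.75 untreated in lymphoma_4936. The array of ADR-treated lymphoma_1032 had a median of 4.15, and the other 9 medians lay between 4.43 and 4.50. The 3' minus 5' signal of the Gapdh and beta-actin controls, a sign of RNA integrity, had a mean change of 0.034 ± 0.052 (SD, n = 5). In cultures of mixed cells, fewer cells of a type and less RNA per cell cannot be told apart. The part of these other cells in the members' values was not tested. Results are also given without lymphoma_5783 and lymphoma_1032. That subset keeps lymphoma_7890, whose untreated macrophage marker mean of 10.33 was the highest, so it does not test that part.

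With Adriamycin the 10 genes had average changes of either sign. The change is the log2 signal with ADR minus the untreated signal of the same lymphoma, and it was fitted with limma, with the lymphoma as a block. Of 9 tested members, 0 passed an adjusted p of 0.05 (Benjamini-Hochberg over 11472 genes in limma), as did 0% of all genes tested. On average 4 members were higher and 5 lower with ADR, with a median change of -0.206, while 44.8% of all genes were higher and 55.2% lower, with a median of -0.024. Cdkn1a and Cdkn2b were higher in all 5 lymphomas, as were 4.67% of all genes, and 0 members were lower in all 5, as were 4.82% of all genes. At an unadjusted p below 0.05, Cdkn1a was higher and Cdkn2c lower, against 3.97% of all genes higher and 4.52% lower.

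**Figure D1:**
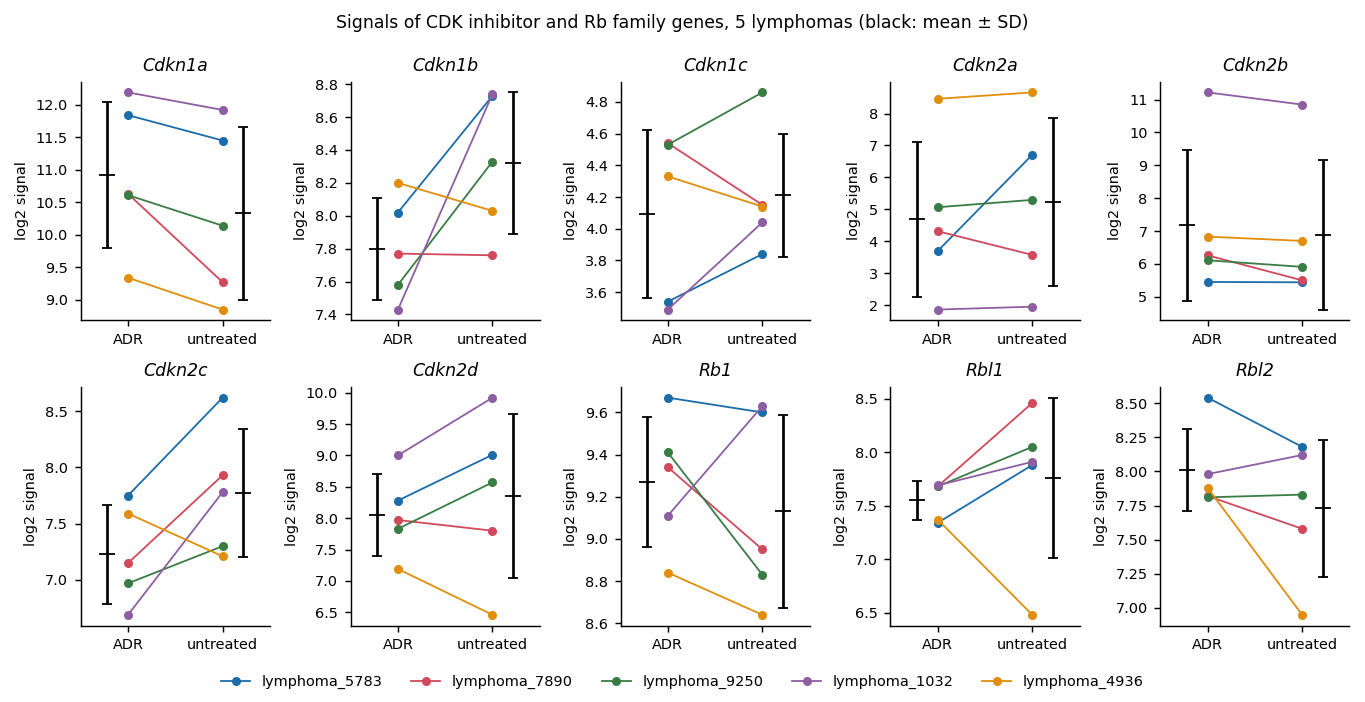
Log2 signals of the 10 genes on the ADR array (left) and the untreated array (right) of each lymphoma, joined by a line per lymphoma, with black bars for mean ± SD (n = 5); each panel has its own axis. The lines of Cdkn1a all slope the same way, those of Cdkn2a and Cdkn2b lie far apart between lymphomas, and lymphoma_4936 runs against the other lines for Cdkn2c and Rbl1.

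Of the CIP/KIP genes, Cdkn1a, the p53-induced inhibitor of CDK2 complexes, was higher with ADR in every lymphoma. Its signals with ADR were 12.19 in lymphoma_1032, 9.34 in lymphoma_4936, 11.84 in lymphoma_5783, 10.63 in lymphoma_7890 and 10.61 in lymphoma_9250. Untreated, they were 11.92, 8.85, 11.45, 9.27 and 10.14 in those lymphomas. The ranges of the groups overlapped widely, since the level went with the lymphoma more than with the treatment: lymphoma_4936 with ADR lay below untreated lymphoma_9250, lymphoma_5783 and lymphoma_1032. The change was 1.36 in lymphoma_7890 and between 0.28 and 0.49 in the others. The mean change was 0.60 ± 0.43 (SD, n = 5), 1.51-fold, with a 95% interval in limma of 0.20 to 1.00 and an adjusted p of 0.565. Without lymphoma_7890 it was 0.41, and without lymphoma_5783 and lymphoma_1032 it was 0.77. The other probe set of Cdkn1a, 1421679_a_at, had changes of 0.25 in lymphoma_1032, 0.41 in lymphoma_4936, 0.32 in lymphoma_5783, 1.26 in lymphoma_7890 and 0.57 in lymphoma_9250.

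Cdkn1b, whose product p27 holds CDK2 inactive in resting cells and is controlled mostly through protein decay, had signals with ADR of 7.43 in lymphoma_1032, 8.20 in lymphoma_4936, 8.02 in lymphoma_5783, 7.77 in lymphoma_7890 and 7.58 in lymphoma_9250. The untreated signals were 8.74, 8.03, 8.73, 7.76 and 8.33 in those lymphomas. Cdkn1b was lower with ADR in lymphoma_5783, lymphoma_9250 and lymphoma_1032, by 0.72 to 1.31, and close to its untreated level in the other two. The mean change was -0.52 ± 0.61 (SD, n = 5; 95% interval -1.04 to 0.00, adjusted p = 0.577 in limma), and it was -0.32 without lymphoma_1032 and -0.19 without lymphoma_5783 and lymphoma_1032. Its other probe set, 1419497_at, was above the table median on 0 of 10 arrays, with a mean change of -0.35. The neighbouring noncoding gene Lockd, which is transcribed next to Cdkn1b, was above the table median on 3 arrays and had signals of 3.28 ± 0.89 with ADR and 4.27 ± 0.74 untreated. Lockd had changes of -1.96 in lymphoma_1032, 1.10 in lymphoma_4936, -2.12 in lymphoma_5783, -0.60 in lymphoma_7890 and -1.36 in lymphoma_9250, the same signs as Cdkn1b but for lymphoma_7890. Cdkn1c, an imprinted gene of the same family, had signals between 3.49 and 4.54 with ADR and between 3.84 and 4.86 untreated. Its change was -0.12 ± 0.39, with both signs among the lymphomas.

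The INK4 genes at the Cdkn2a and Cdkn2b locus on chromosome 4 had levels that went with the lymphoma. Cdkn2a had signals with ADR of 1.87 in lymphoma_1032, 8.46 in lymphoma_4936, 3.70 in lymphoma_5783, 4.32 in lymphoma_7890 and 5.07 in lymphoma_9250, against untreated signals of 1.96, 8.66, 6.71, 3.58 and 5.30 in those lymphomas. Lymphoma_4936 was highest in both groups, and Cdkn2a was above the table median on 5 of 10 arrays, with both arrays of lymphoma_1032 and of lymphoma_7890 and the ADR array of lymphoma_5783 below it. The change was -3.01 in lymphoma_5783 and between -0.23 and 0.74 in the others, a mean of -0.56 ± 1.43 (SD, n = 5; 95% interval -1.68 to 0.57, adjusted p = 0.732 in limma). Without lymphoma_5783 the mean was 0.06. The ADR signal of lymphoma_5783 was itself below the table median, and with signals below the median set to it the change there was -2.28 and the mean -0.54. In that lymphoma 11 of 16 macrophage markers were higher with ADR, with changes up to 2.6 for Fcgr1, and 5 were lower. The lower ones were Mrc1 (-2.94), C1qa (-2.91), C1qb (-2.4), C1qc (-1.3) and Cd14 (-1.3). Of 16 fibroblast markers 11 were higher there and 5 lower, with Col3a1 (-1.83) and Postn (-1.67) among the lower ones. The part of such cells in the Cdkn2a value was not tested. The probe set, 1450140_a_at, is tied to the p19ARF transcript by the array annotation, and by its suffix it detects several transcripts of the gene, so the signal cannot be assigned to the p19ARF or the p16INK4a start shown above.

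Cdkn2b, an inhibitor of CDK4 and CDK6 that TGF-beta induces in many epithelial cells, had signals with ADR of 11.22 in lymphoma_1032, 6.83 in lymphoma_4936, 5.45 in lymphoma_5783, 6.26 in lymphoma_7890 and 6.11 in lymphoma_9250. The untreated signals were 10.85, 6.70, 5.44, 5.50 and 5.91 in those lymphomas. Lymphoma_1032 stood apart in both groups, with Cdkn2b high and Cdkn2a below the table median. The mean change was 0.29 ± 0.29 (SD, n = 5; 95% interval -0.03 to 0.61, adjusted p = 0.579 in limma), of which lymphoma_7890 had 0.76 and lymphoma_5783 0.01. Without lymphoma_7890 the mean was 0.18, and without lymphoma_5783 and lymphoma_1032 it was 0.36. Mtap, the metabolic enzyme gene next to Cdkn2a, had signals between 9.40 and 9.78 with ADR and between 8.53 and 9.63 untreated, so that it was well above the table median on every array, including those of lymphoma_1032. Dmrta1, on the far side of Cdkn2b, was above the table median on 0 of 10 arrays.

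**Figure D2:**
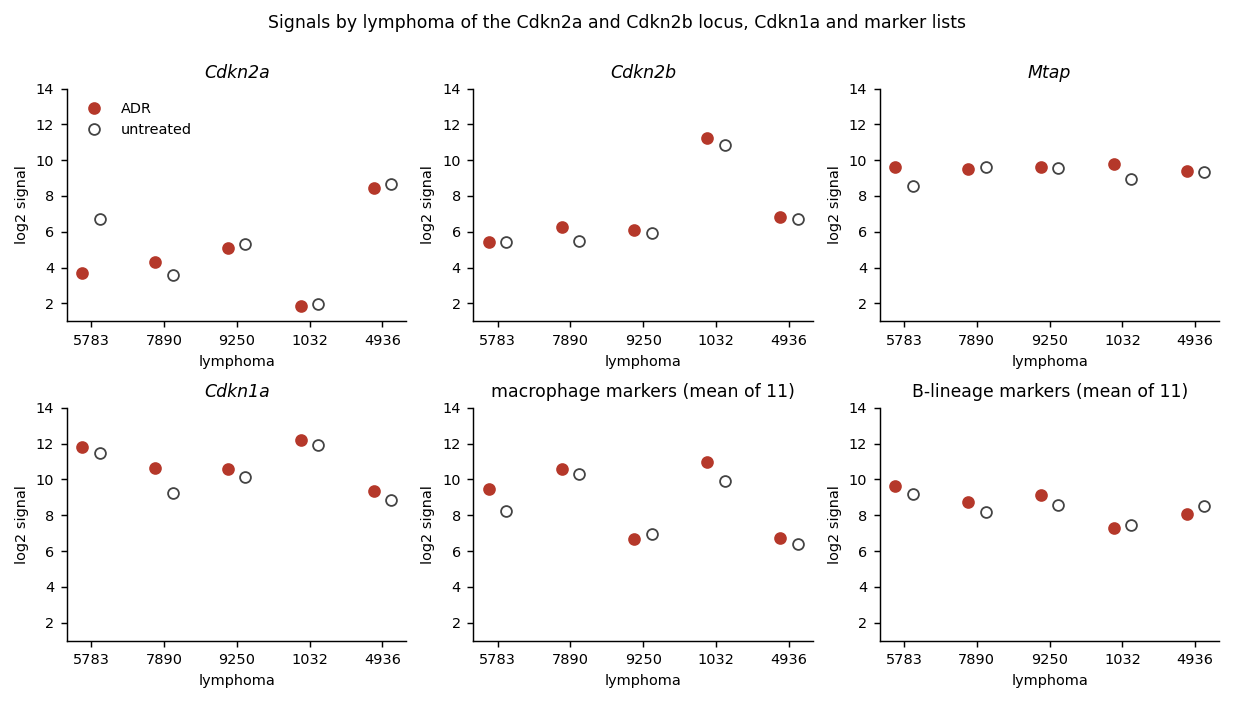
Log2 signals by lymphoma, ADR (filled, left) and untreated (open, right), of Cdkn2a, Cdkn2b, their neighbour Mtap, Cdkn1a, and the mean of the tested macrophage and B-lineage markers, on 1 common axis. Cdkn2a spans from 1.87 to 8.66 and Cdkn2b is highest on the arrays of lymphoma_1032, whereas Mtap stays between 8.53 and 9.78.

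The other INK4 genes had lower average signals with ADR. Cdkn2c, which restrains CDK6 in B-lineage cells, had signals with ADR of 6.69 in lymphoma_1032, 7.59 in lymphoma_4936, 7.75 in lymphoma_5783, 7.15 in lymphoma_7890 and 6.97 in lymphoma_9250. Untreated, they were 7.78, 7.21, 8.62, 7.93 and 7.30. It was lower with ADR in 4 lymphomas and higher by 0.38 in lymphoma_4936. The mean change was -0.54 ± 0.58 (SD, n = 5; 95% interval -1.04 to -0.03, adjusted p = 0.575 in limma), and it was -0.77 without lymphoma_4936 and -0.24 without lymphoma_5783 and lymphoma_1032. Cdkn2d, which inhibits the same kinases, had signals with ADR of 9.0 in lymphoma_1032, 7.19 in lymphoma_4936, 8.28 in lymphoma_5783, 7.97 in lymphoma_7890 and 7.83 in lymphoma_9250, and untreated signals of 9.92, 6.46, 9.01, 7.80 and 8.57. It was lower by 0.73 to 0.92 in lymphoma_5783, lymphoma_9250 and lymphoma_1032 and higher by 0.16 in lymphoma_7890 and 0.73 in lymphoma_4936. The mean was -0.30 ± 0.71 (adjusted p = 0.729 in limma), and it was 0.05 without lymphoma_5783 and lymphoma_1032. The order of the lymphomas was nearly the same in both groups, with lymphoma_1032 highest and lymphoma_4936 lowest, and their SD was 0.66 with ADR and 1.31 untreated.

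**Figure D3:**
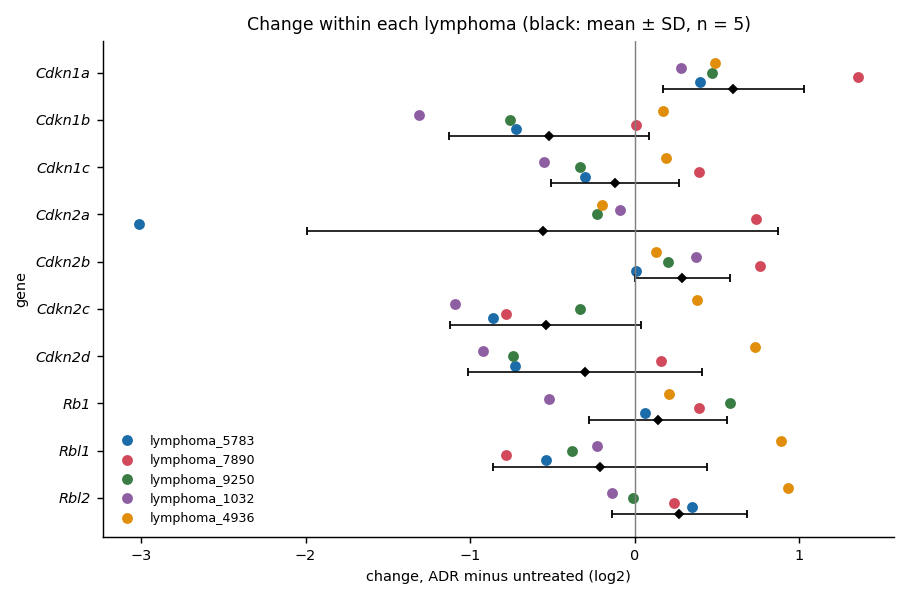
Change of each gene, ADR minus untreated on the log2 scale, as 1 point per lymphoma, with the mean ± SD in black (n = 5). All points of Cdkn1a and Cdkn2b lie above 0, the Cdkn2a point of lymphoma_5783 lies at -3.01, and lymphoma_4936 has the highest change for Cdkn1b, Cdkn2c, Cdkn2d, Rbl1 and Rbl2.

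Among the pocket proteins, Rb1, the tumour suppressor that binds the activator E2Fs, had signals between 8.84 and 9.67 with ADR and between 8.64 and 9.63 untreated. Its change was -0.52 in lymphoma_1032, 0.21 in lymphoma_4936, 0.06 in lymphoma_5783, 0.39 in lymphoma_7890 and 0.58 in lymphoma_9250. The mean was 0.14 ± 0.42 (SD, n = 5; 95% interval -0.25 to 0.54, adjusted p = 0.803 in limma), and 0.31 without lymphoma_1032. Its other probe set, 1444400_at, was above the table median on 1 array and had a mean change of -0.29, and with the average of both the change of Rb1 turned to -0.07.

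Rbl1, the pocket protein of cycling cells, had signals with ADR of 7.69 in lymphoma_1032, 7.37 in lymphoma_4936, 7.34 in lymphoma_5783, 7.68 in lymphoma_7890 and 7.68 in lymphoma_9250, against untreated signals of 7.91, 6.48, 7.88, 8.46 and 8.05. With ADR the 5 lymphomas were close to each other, with an SD of 0.18, and untreated they had an SD of 0.75 with lymphoma_4936 below the others. The mean change was -0.21 ± 0.65 (SD, n = 5; 95% interval -0.75 to 0.34, adjusted p = 0.795 in limma), and -0.48 without lymphoma_4936. The probe set 1425166_at, above the table median on 8 arrays, had the same signs and larger changes but for lymphoma_7890, -1.47 in lymphoma_1032, 1.21 in lymphoma_4936, -1.86 in lymphoma_5783, -0.60 in lymphoma_7890 and -1.18 in lymphoma_9250, with a mean of -0.78. The other 2 probe sets of Rbl1 were above the table median on 0 arrays, and 1454293_at had a mean change of 0.37.

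Rbl2, the pocket protein of resting cells and of the DREAM repressor, had signals with ADR of 7.98 in lymphoma_1032, 7.88 in lymphoma_4936, 8.54 in lymphoma_5783, 7.82 in lymphoma_7890 and 7.81 in lymphoma_9250, and untreated signals of 8.12, 6.95, 8.18, 7.58 and 7.83. The groups overlapped, and 0.93 of change in lymphoma_4936 made up most of the mean of 0.27 ± 0.41 (SD, n = 5; 95% interval -0.12 to 0.67, adjusted p = 0.644 in limma), which was 0.11 without that lymphoma. The probe set 1418146_a_at, above the table median on all 10 arrays, had a change of -0.31 in that lymphoma and a mean of -0.31 ± 0.60. The probe sets of Rbl2 thus gave opposite signs, and no direction can be given for this gene.

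**Figure D4:**
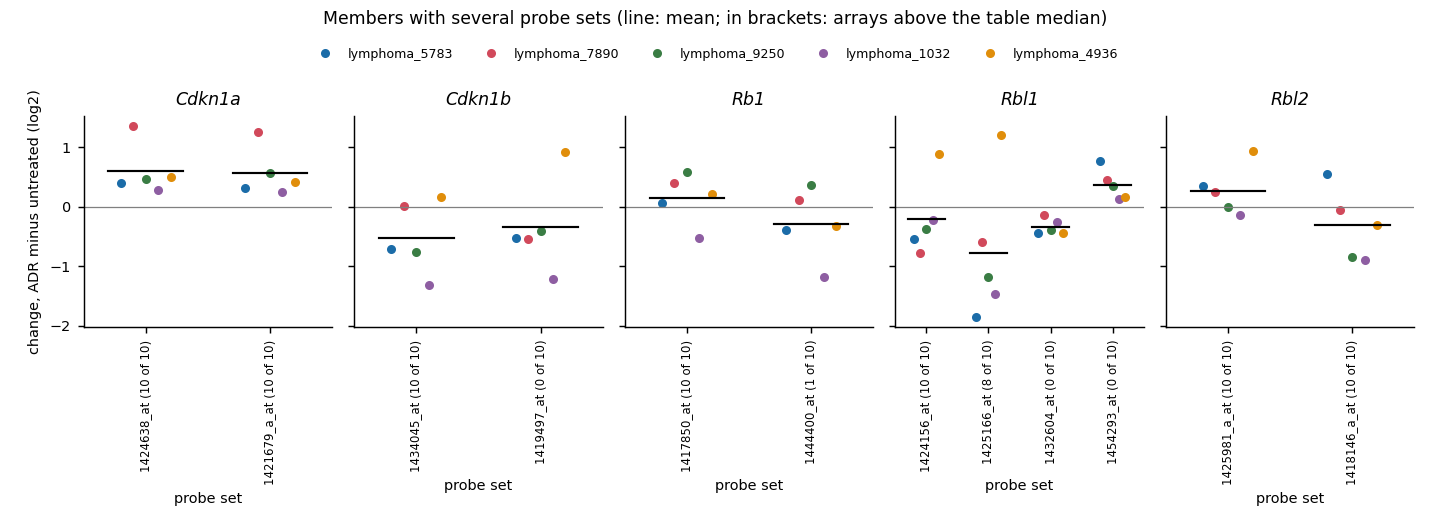
Change, ADR minus untreated on the log2 scale, of every probe set of the genes with more than 1, with 1 point per lymphoma and a line at the mean; the number in brackets counts the arrays on which the probe set lay above the table median of 4.43. Both probe sets of Cdkn1a have the same pattern, and those of Rb1, Rbl1 and Rbl2 differ in the sign of their means.

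Differences between lymphomas were larger than the treatment changes for several members. A moderated F test on the 5 lymphomas in the same limma fit, in which the spread is what lymphoma and treatment leave, called Cdkn2b (adjusted p = 9.05e-05), Cdkn1a (0.00237), Cdkn2a (0.00785) and Cdkn2d (0.0192), 4 of 9 tested members, against 26.9% of all genes tested. The means of the 5 lymphomas spanned 6.64 for Cdkn2a, 5.59 for Cdkn2b, 2.96 for Cdkn1a and 2.64 for Cdkn2d. For Cdkn2a both signals of lymphoma_1032 were below the table median, and array signals that low have no sure order, so its span is better read as the 4.13 obtained with signals below the median set to it (adjusted p = 0.00679 in limma). A span of at least 2 was present in 8.93% of all genes, and the spans of the other 5 tested members lay between 0.61 and 1.15. Untreated Cdkn1a was highest in lymphoma_1032, followed by lymphoma_5783, lymphoma_9250, lymphoma_7890 and lymphoma_4936, and with ADR lymphoma_7890 and lymphoma_9250 were level. Cdkn2a was highest in lymphoma_4936 and below the table median in lymphoma_1032. The macrophage marker mean was 10.95 with ADR and 9.89 untreated in lymphoma_1032, 6.73 with ADR and 6.40 untreated in lymphoma_4936, and 10.59 with ADR and 10.33 untreated in lymphoma_7890. In lymphoma_5783 it was 9.47 with ADR and 8.24 untreated, and in lymphoma_9250 it was 6.66 with ADR and 6.94 untreated. Without lymphoma_1032 the F test called 2 members, Cdkn1a and Cdkn2b, with adjusted p = 0.0502 for Cdkn2a and 0.0788 for Cdkn2d. Without lymphoma_4936 Cdkn2a was not called (0.0775), and without both lymphoma_5783 and lymphoma_1032 Cdkn2a alone was (0.00312).

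The treatment changes of the members also varied from lymphoma to lymphoma. The SD of the change over the 5 lymphomas had a median of 0.582 over the tested members and of 0.333 over all genes tested. It was 1.43 for Cdkn2a, 0.71 for Cdkn2d, 0.65 for Rbl1 and 0.61 for Cdkn1b, above that of 99.6%, 90.1%, 86.8% and 84.4% of all genes. For Cdkn2c the SD was 0.58, above that of 82.4% of all genes. For Cdkn1a, Rb1 and Rbl2 it was 0.41 to 0.43, above that of 64.5% to 67.2%. For Cdkn2b it was 0.29, above that of 40.9%. With signals below the table median set to it, the SD of Cdkn2a was 0.98. Cdkn2c and Rbl1 were lower in 4 lymphomas and higher in lymphoma_4936, a pattern shown by 9.5% of all genes. This pattern was picked after the values were seen.

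The members were set beside lists of genes of their pathway, whose medians are to be read against -0.024 over all genes tested. Of 14 tested cyclins and CDKs, on which the inhibitors act, 6 were higher and 8 lower on average, with a median change of -0.09, and 0 passed over all genes. Ccnd2, a D-type cyclin of B cells, had changes of 1.51 in lymphoma_1032, -0.22 in lymphoma_4936, 1.68 in lymphoma_5783, 1.88 in lymphoma_7890 and 0.74 in lymphoma_9250, a mean of 1.12 ± 0.86 (SD, n = 5; adjusted p = 0.565 in limma). Ccnd1 had a change of 0.60 ± 0.52, and Cdk2, the kinase that p21 and p27 inhibit, of -0.37 ± 0.30. Cdk2 was lower in all 5 lymphomas, as were 4.82% of all genes, but its change in lymphoma_4936 was only -0.01. Of 10 genes for E2F and DP factors, the partners of the pocket proteins, 7 were lower on average, with a median of -0.26. In that list E2f2, an activator, had a change of -0.55 ± 0.51, E2f4, the repressor E2F bound by p107 and p130, of -0.40 ± 0.36, and Tfdp2, a DP subunit, of -0.34 ± 0.38.

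Genes that E2F factors activate at the G1/S transition were lower with ADR in 4 lymphomas and higher in lymphoma_4936 by their list mean. Of 27 tested replication and nucleotide genes 26 were lower on average, with a median of -0.27, 0 passed, and the list mean was -0.48 in lymphoma_1032, 0.82 in lymphoma_4936, -0.73 in lymphoma_5783, -0.65 in lymphoma_7890 and -0.45 in lymphoma_9250. Rbl1, which is an E2F target too, had -0.23, 0.89, -0.54, -0.78 and -0.38 in those lymphomas. Rfc4, a clamp loader subunit, had a mean change of -0.54 ± 0.62, Pole, the leading-strand polymerase, of -0.52 ± 0.72 and Dut of -0.43 ± 0.54. All 7 genes for MuvB proteins and their activators were lower on average, with a median of -0.31 and a mean of 0.16 in lymphoma_4936. Among these were Mybl2, which turns MuvB into an activator, at -0.51 ± 0.60, and the MuvB subunits Lin54 at -0.47 ± 0.44 and Lin9 at -0.41 ± 0.47.

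**Figure D5:**
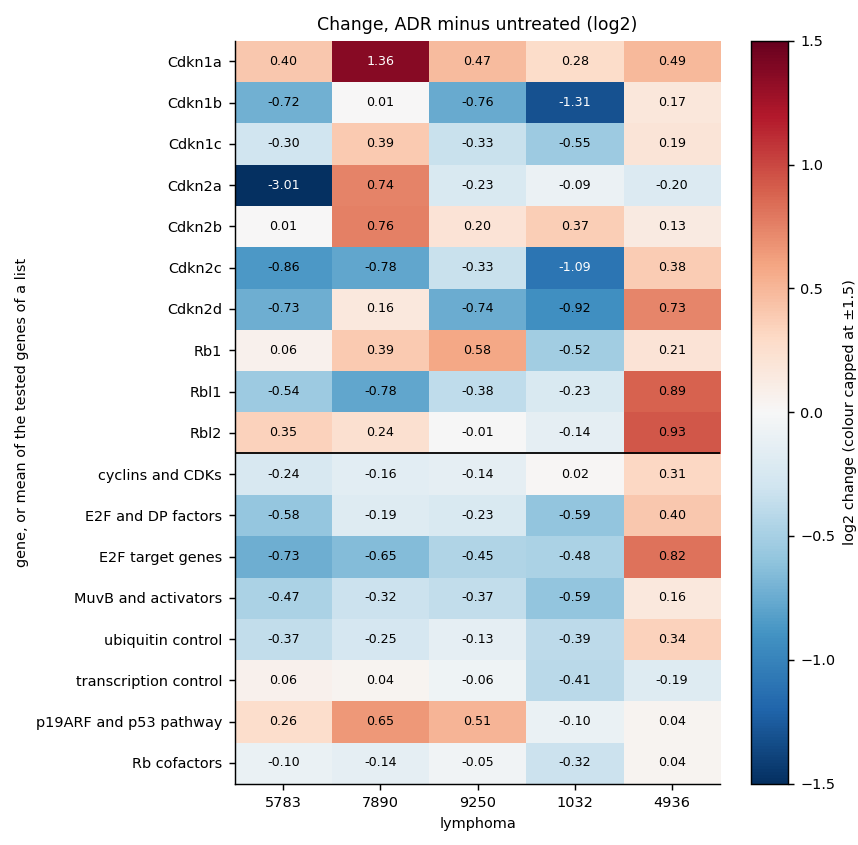
Change, ADR minus untreated on the log2 scale, of the 10 genes (upper block) and of the mean over the tested genes of each pathway list (lower block), by lymphoma; red is higher and blue lower with ADR. Lymphoma_4936 has positive values for the E2F target, E2F and DP, MuvB, ubiquitin control and Rb cofactor lists, where the other 4 lymphomas have negative ones. For the Rb cofactors its value is only 0.04.

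Further lists held p19ARF partners and p53 targets, genes that control the inhibitors, and Rb cofactors. Of 24 tested p19ARF partners and p53 targets 18 were higher and 6 lower on average, with a median of 0.34, and 0 passed over all genes. The list mean was -0.10 in lymphoma_1032, 0.04 in lymphoma_4936, 0.26 in lymphoma_5783, 0.65 in lymphoma_7890 and 0.51 in lymphoma_9250. Lymphoma_7890 had both the highest list mean and the highest change of Cdkn1a. The other lymphomas did not keep 1 order, with a Cdkn1a change of 0.49 in lymphoma_4936, 0.47 in lymphoma_9250 and 0.40 in lymphoma_5783. Phlda3, an Akt inhibitor, had a change of 0.88 ± 0.41, Zmat3 of 0.94 ± 0.80 and Ccng1, cyclin G1, of 0.65 ± 0.49. Each was higher in all 5 lymphomas, as were 4.67% of all genes, Zmat3 by only 0.09 in lymphoma_4936. Of 26 tested transcriptional regulators of the inhibitors 18 were lower, with a median of -0.12. Among them Ezh2, the Polycomb methyltransferase that represses the Cdkn2a locus, had a change of -0.61 ± 0.78, with 0.64 in lymphoma_4936, Id2 of -0.75 ± 0.92 and Ets1, an activator of p16INK4a, of -0.54 ± 0.62. Of 14 tested genes for the ubiquitin control of p27, p21 and the cell cycle 10 were lower, with a median of -0.15. They included Fbxo5, an inhibitor of the anaphase-promoting complex, at -0.78 ± 1.04, Dtl, which directs p21 to decay, at -0.52 ± 0.67 and Cks1b, the cofactor with which Skp2 recognises p27, at -0.26 ± 0.35. Of 18 tested Rb cofactors 15 were lower, with a median of -0.06, among them Cbx5, the HP1 alpha gene, at -0.50 ± 0.49, Dnmt1 at -0.35 ± 0.59 and Ppp1cb, a phosphatase subunit, at -0.24 ± 0.16. Of these 4 lists 0 genes passed the threshold in limma.

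The genes whose signal was most like that of a member were found by Pearson's r over the 10 arrays, which come in 5 pairs from the same lymphomas. Cdkn1a was most like Fas, a p53-induced death receptor (r = 0.98), Tmem230 (0.98) and Dcxr (0.96). Fas had signals of 7.32 ± 0.80 with ADR and 6.96 ± 1.05 untreated. Rbl1 was most like Exosc3 (0.98), the thymidine kinase gene Tk1 (0.96) and the histone acetyltransferase gene Hat1 (0.96). Cdkn2b was most like Il10 (0.98), Nradd (0.96) and Tnfsf4 (0.96), and Cdkn2a like Cep43 (0.95), Map3k9 (0.94) and Cnot6l (0.94). Cdkn1b was most like Haao (0.98), Fuom (0.95) and Lbh (0.93), and Cdkn2d like Nit1 (0.97), Slc25a40 (0.96) and Acbd4 (0.96). The closest genes were Ntn4 for Cdkn2c (0.93), E330020D12Rik for Rb1 (0.96) and Hps4 for Rbl2 (0.98). Among 11472 genes and over few lymphomas such values describe these arrays only.

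Near the other members, Srsf3, a splicing factor gene beside Cdkn1a, had signals of 11.13 ± 0.47 with ADR and 11.28 ± 0.57 untreated. Faf1, beside Cdkn2c, had 8.40 ± 0.14 with ADR and 8.62 ± 0.23 untreated. Samhd1, a dNTP hydrolase gene beside Rbl1, had 9.03 ± 0.41 with ADR and 8.94 ± 0.23 untreated, and Aktip, beside Rbl2, had 6.09 ± 0.79 with ADR and 6.45 ± 0.61 untreated (SD, n = 5).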

How the data were processed

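Total RNA of 5 lymphomas was measured on 10 Affymetrix mouse arrays, 1 per lymphoma and condition. The authors deposited 1 table of log2 signals per probe set; RMA and Partek are the tools named in the submitters' processing notes, with no version or setting given in the sources used here. The log base was read from the range of the values, which were used as deposited. The number of arrays limits the precision.

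Of 45101 probe sets, 34945 carried a single gene symbol and 932 several; the single symbols named 18193 genes. Gene IDs of 34754 of the 34945 were found in the RefSeq table (GRCm38.p6), and 0 symbols were replaced. Genes above the table median on at least 5 of 10 arrays were tested with limma 3.58.1 in R 4.3.3 (lmFit, eBayes), with terms for the lymphoma and the treatment. P-values are two-sided and Benjamini-Hochberg adjusted over 11472 genes with a threshold of 0.05. The lymphoma number in the labels pairs the arrays of a lymphoma; whether each came from a separate mouse is not stated, and across genes the 2 arrays of a pair deviated from their group means together, with correlations of 0.51 to 0.79. The fit was tested on simulated data. Tables and plots were made with Python 3.11.15, pandas 2.3.3 and matplotlib 3.10.9.

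The 10 genes, the pathway and marker lists and the tests were chosen with earlier results of these data known. The text names all members, from each pathway list the 3 genes with the smallest p, the 3 genes most like a member by r (only the closest for Cdkn2c, Rb1 and Rbl2), and genes next to a member; single marker genes were picked with their values in view. Alternatives were no replicate block, no filter, a stricter filter (70th percentile), each other probe set and the average over a gene's probe sets, another quantile normalization, centred arrays, array weights, a prior that was trended and robust, and each lymphoma left out in turn. Leaving out lymphoma_5783 and lymphoma_1032 together, and setting signals below the table median to it, were chosen after seeing the data. Suv39h1 is not analysed here, so the genotype was not checked.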

Additional observations from a re-analysis of the deposited data

Results flagged for a closer look

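For the members 30 sets of 5 values were examined, made of ADR signals, untreated signals and changes. In 5 of them the gap of a lymphoma to the nearest of the others exceeded Dixon's 95% limit. Among 14 list means of changes 1 did. Chance gives about 1 in 20 such sets. The sets of a gene share values, and the share of such sets over all genes was not computed. No excess over chance can therefore be read from these counts. The change of Cdkn1a was 1.36 in lymphoma_7890, and the other lymphomas lay between 0.28 and 0.49. The change of Cdkn2a was -3.01 in lymphoma_5783, against -0.23 to 0.74 in the others; its ADR signal there was below the table median. Cdkn2b stood apart in lymphoma_1032 in both groups, at 11.22 with ADR and 10.85 untreated. Rbl2 was highest in lymphoma_5783 with ADR, at 8.54, where the others lay between 7.81 and 7.98. The mean change of the E2F target list was 0.82 in lymphoma_4936, while it was negative in the other 4 lymphomas.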

How the results depend on the processing

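The count of genes that passed for ADR minus untreated was 0 in limma under all 15 alternatives, with 455 genes higher and 518 lower at an unadjusted p below 0.05 as reported, and 888 higher and 247 lower when the arrays were centred. Without the replicate block it was 0 as well, with 62 genes higher and 200 lower at that unadjusted p. No replicate block left the change of Cdkn1a at 0.60 with an adjusted p of 1, and the adjusted p of Cdkn1a lay between 0.318 and 1 over its 16 alternatives. The block changed no call. The F test between lymphomas called 3089 genes, and leaving out each lymphoma gave between 1179 and 2796 genes and 2 to 4 members. Without lymphoma_5783 and lymphoma_1032, which leaves fewer samples, it called 758 genes and 1 member, with adjusted p = 0.0947 for Cdkn1a, 0.114 for Cdkn2b and 0.135 for Cdkn2d in limma. The change of Cdkn2a lay between -0.88 and 0.06 when 1 lymphoma was left out, turning to 0.06 without lymphoma_5783 and to 0.10 without both lymphomas, and Cdkn2d to 0.05 without both. With the mean of all probe sets Rb1 turned to -0.07 and Rbl2 to -0.02, and Rbl2 was -0.31 with its other probe set. The Rb1 change was -0.29 with its other probe set. The cause was not tested beyond these values. The other 150 changes under alternatives kept their side of the threshold and their sign, or moved by less than 1 SD where no test applied, and 122 of the lymphoma tests of single members kept their call. The 5 pairs limit what can pass, and signals of Cdkn1c, of Cdkn2a on 5 arrays and of low probe sets lay below the table median, where array signals separate levels poorly. With such signals set to the median the F test called 3247 genes and 4 members.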
